A study of Mus musculus with 8 samples.

Results

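Nnt and 7 further genes of mitochondrial NADPH and peroxide metabolism (Idh2, Prdx3, Txn2, Txnrd2, Gsr, Gpx1 and Sod2) were followed in the mouse colon with and without epithelial expression of human SIGLEC12. All identifiers that carry these 8 gene symbols were taken, which gave 10 of the 52143 Ensembl identifiers in the deposited values. Nnt and Txnrd2 each had 2 identifiers and the other members 1. The genes were chosen by their log2(TPM + 1) values in this same comparison of SiglecXII with Control, so their group differences are described here and not tested.

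RNA was from the colon of 4 Control (Villin1-Cre-ERT) and 4 SiglecXII (SIGLEC12-Villin1-Cre-ERT) samples. The SiglecXII mice were heterozygous knock-ins at ROSA26, in which a CAG promoter drives SIGLEC12 once Cre has removed an EGFP-stop cassette, and Villin1 confines Cre to the intestinal epithelium. The Control mice were littermates that carry the same Cre. All mice were females, aged 8 weeks when tamoxifen began, and received tamoxifen for 5 days, and the distal colon was taken 7 days after the last dose, on day 12. The design text speaks of 3 mice per condition whereas 4 samples per group are listed, and nothing ties each sample to a separate animal, so the spread between samples may be partly technical. No row carries the symbol SIGLEC12, EGFP or Cre, which left the labels without a check by the transgene.

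Nnt, the nicotinamide nucleotide transhydrogenase of the inner mitochondrial membrane, uses the proton gradient to pass a hydride from NADH to NADP+. Idh2, the mitochondrial isocitrate dehydrogenase, is the other main source of NADPH in the matrix among the members. Sod2, the manganese superoxide dismutase, turns superoxide into hydrogen peroxide, which Prdx3 reduces with electrons from thioredoxin 2 (Txn2) and its reductase (Txnrd2), and Gpx1 reduces with glutathione that Gsr regenerates. Both branches draw on NADPH. Colonocytes oxidise butyrate in their mitochondria. Nnt is also known to differ between C57BL/6 substrains: C57BL/6J, the strain of the mouse reference genome, lacks a run of internal Nnt exons that C57BL/6N keeps. The substrain of the mice is not given in the sources used here.

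Nnt lies on the minus strand of chromosome 13 in GRCm38 under 2 Ensembl identifiers that cover nearly the same interval. ENSMUSG00000025453 spans chr13:119335448-119408997 with 5 annotated transcripts, and ENSMUSG00000116207 spans chr13:119335528-119408952 with 1, Nnt-206. Nnt-206 has 17 exons and 3339 bases, and its whole sequence lies inside Nnt-202 of the first identifier (3464 bases), with 45 bases of Nnt-202 before it and 80 after it. Every one of the 3309 windows of 31 bases in Nnt-206 (100%) therefore also occurs in the other identifier, and a read inside Nnt-206 cannot be told apart from one of Nnt-202. The division of Nnt between the identifiers is uncertain for this reason, and the sum of both was taken as the level of Nnt. The other coding transcripts differ more, as Nnt-201 skips exons 8 and 9 of Nnt-202 (342 bases) and has 95.05% of its windows in the other identifier.

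The junctions below show what the annotated Nnt transcripts share and where they part. Each is read 5′ to 3′ on the minus strand of GRCm38 from the annotated transcripts, with 30 bases of the upstream exon in lower case and 30 bases of the downstream exon in capitals, and both exons are coding. The first joins exon 6 (chr13:119386579-119386667) to exon 7 (chr13:119381676-119381863) and is carried by all 4 coding transcripts, so it occurs in both identifiers. The second joins exon 7 to exon 8 (chr13:119374629-119374774) in Nnt-202, Nnt-203 and Nnt-206. The stretch that C57BL/6J lacks falls between these exons, so the missing exons have no sequence in this annotation. The third joins exon 7 to the exon at chr13:119369912-119370145 in Nnt-201 and is the one that only ENSMUSG00000025453 holds.
Exon 6 to exon 7, both identifiers: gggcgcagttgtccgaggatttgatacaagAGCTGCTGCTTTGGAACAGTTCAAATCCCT
Exon 7 to exon 8, both identifiers: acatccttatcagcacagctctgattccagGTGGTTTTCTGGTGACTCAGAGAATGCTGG
Exon 7 to exon 8 of Nnt-201: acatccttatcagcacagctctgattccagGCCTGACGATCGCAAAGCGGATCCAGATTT

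The values are log2(TPM + 1), and TPM is a length-corrected share of a library. It keeps no record of read number, and the depth of each value is unknown. Between 12748 and 13715 rows per sample reached a TPM of 1, and limma was run on the 13164 rows that reached it in 4 or more samples. All 10 member identifiers passed this filter. The 9 epithelial markers (Epcam, Vil1, Cdh1, Krt8, Krt20, Cdx1, Cdx2, Car1 and Slc26a3) summed to 8285 to 11588 TPM in Control and 8970 to 11721 TPM in SiglecXII, and each of the 9 was above 1 TPM in every sample. SiglecXII 3 and 4 stood apart from the other 6 samples on the first principal component (40.3% of the variance), at 36.2 and 50.2 against -29.0 to -4.80. The median deviation of the tested rows from their own means over the 8 samples was -0.16 and -0.30 log2 units in these samples. Differences between the groups had a median of -0.15 over all tested rows, and 78.1% of them were below 0, and without these 2 samples the median was 0.00313 and 49.1% were below 0. The member differences are therefore also given without them.

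Summed over both identifiers, Nnt had a lower mean in SiglecXII than in Control, within overlapping groups. The Control samples 1 to 4 held 11.0, 16.4, 16.2 and 12.8 TPM of Nnt. The SiglecXII samples 1 to 4 held 13.6, 12.8, 9.14 and 7.13 TPM. SiglecXII 3 and 4 were the lowest of all 8 samples, while SiglecXII 1 and 2 lay inside the Control range. On the log2(TPM + 1) scale the means were 3.90 ± 0.26 (SD, n = 4) in Control and 3.51 ± 0.40 (SD, n = 4) in SiglecXII, a difference of -0.40 with a standard error of 0.215. Without SiglecXII 3 and 4 the difference was -0.07, and with each sample centred on the median level of its tested rows it was -0.18. This centring raised every difference by 0.21.

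Between the identifiers, whose division is uncertain, the lower SiglecXII mean lay in the one with a single transcript. Within SiglecXII, the lower totals of samples 3 and 4 than of samples 1 and 2 lay in ENSMUSG00000025453. ENSMUSG00000116207 stood at 5.21, 6.52, 8.78 and 6.81 TPM in Control 1 to 4 and at 2.91, 3.47, 3.13 and 3.04 TPM in SiglecXII 1 to 4. Every SiglecXII sample lay below every Control sample, and the SiglecXII values were close to each other. The log2(TPM + 1) means were 2.95 ± 0.27 (SD, n = 4) and 2.05 ± 0.08 (SD, n = 4), a difference of -0.90 with a standard error of 0.156. The difference was -0.89 without SiglecXII 3 and 4 and -0.69 with median centring.

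The other Nnt identifier did not share this pattern. ENSMUSG00000025453 stood at 5.78, 9.91, 7.46 and 6.03 TPM in Control 1 to 4 and at 10.7, 9.35, 6.01 and 4.09 TPM in SiglecXII 1 to 4. The highest and the lowest of the 8 values were both SiglecXII samples. Its log2(TPM + 1) means were 3.03 ± 0.31 (SD, n = 4) and 3.02 ± 0.55 (SD, n = 4), and the difference of -0.01 had a standard error of 0.277. This difference was 0.43 without SiglecXII 3 and 4 and 0.21 with median centring, so its sign was not fixed.

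The share of Nnt TPM assigned to ENSMUSG00000116207 was 47.4%, 39.7%, 54.1% and 53.0% in Control 1 to 4. It was 21.4%, 27.0%, 34.2% and 42.6% in SiglecXII 1 to 4. The mean share was 48.5% ± 6.60 (SD, n = 4) in Control and 31.3% ± 9.18 (SD, n = 4) in SiglecXII, and the groups overlapped, since SiglecXII 4 lay above Control 2. Without SiglecXII 3 and 4 the SiglecXII mean share was 24.2%, and both samples lay below all Control samples. The 2 SiglecXII samples with the highest total had the lowest shares on this identifier.

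**Figure D1:**
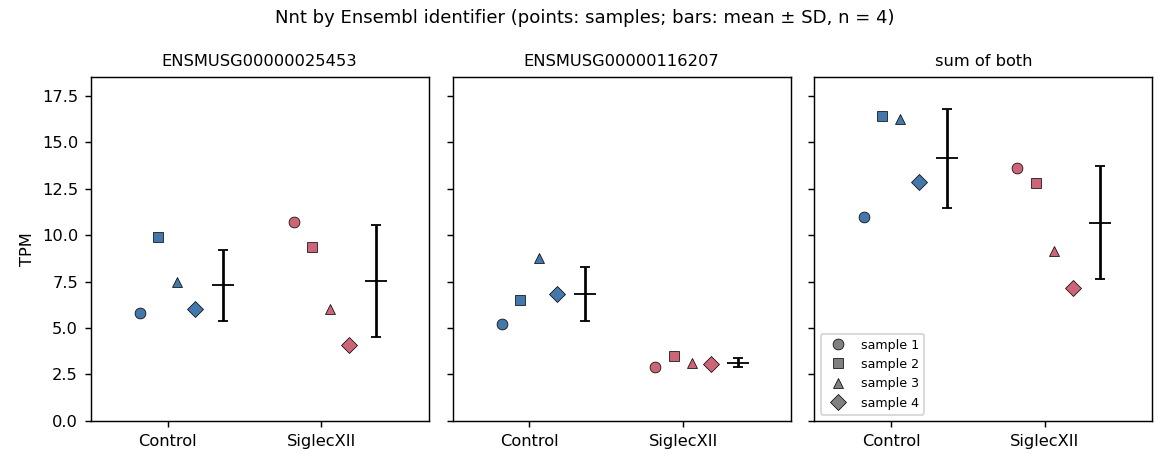
TPM of Nnt (y axis) in the Control (blue) and SiglecXII (red) samples for each Ensembl identifier and for their sum, with 1 point per sample and bars for the mean ± SD (n = 4). The SiglecXII values of ENSMUSG00000116207 lie between 2.91 and 3.47 TPM, below all Control values, whereas the groups overlap for ENSMUSG00000025453 and for the sum.

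Idh2 was the other member with separate groups. Its Control samples stood at 6.75, 6.93, 6.82 and 6.69 log2(TPM + 1) and its SiglecXII samples at 6.67, 6.68, 6.62 and 6.22. All SiglecXII samples lay below all Control samples, but the lowest Control (103 TPM) and the highest SiglecXII sample (101 TPM) lay close together, and SiglecXII 4 was far below the rest. The means were 6.80 ± 0.10 (SD, n = 4) and 6.55 ± 0.22 (SD, n = 4), a difference of -0.25 with a standard error of 0.119. It was -0.12 without SiglecXII 3 and 4 and -0.04 with median centring. It kept its sign in 13 of 13 alternatives, among them the sample number as a block, which could not change it.

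In the thioredoxin branch, the group means differed by less than their standard errors. Prdx3, the peroxiredoxin of the matrix, stood at 6.52, 6.69, 6.58 and 6.51 log2(TPM + 1) in Control and 6.65, 6.53, 6.47 and 6.27 in SiglecXII, a difference of -0.10 with a standard error of 0.0999. Txn2, which hands electrons to Prdx3, was the least variable member among the SiglecXII samples, at 7.67 to 7.74 against 7.60 to 7.80 in Control. Its difference was -0.02 with a standard error of 0.0760. Txnrd2, the reductase of Txn2, had 2 identifiers with the same value in every sample, ENSMUSG00000075704 and ENSMUSG00000099282, and the second is not in the annotation used here. Their sum ranged from 8.57 to 10.8 TPM in Control and from 8.07 to 10.6 TPM in SiglecXII, with a log2(TPM + 1) difference of -0.07 and a standard error of 0.126. The groups overlapped for all 3 genes. With median centring the differences became 0.11 for Prdx3, 0.19 for Txn2 and 0.14 for Txnrd2, and without SiglecXII 3 and 4 they were 0.01, -0.04 and 0.01.

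In the glutathione branch, Gsr, the reductase that restores reduced glutathione, varied more between samples than Gpx1. It stood at 50.5, 76.2, 79.4 and 60.2 TPM in Control and at 73.5, 65.6, 54.7 and 35.5 TPM in SiglecXII. SiglecXII 4 was the lowest and Control 1 the next lowest of the 8 samples. The log2(TPM + 1) difference of -0.24 had a standard error of 0.233, and it turned to 0.08 without SiglecXII 3 and 4. Gpx1, the peroxidase that uses this glutathione, held 565 to 691 TPM in Control and 576 to 686 TPM in SiglecXII. Its log2(TPM + 1) difference was -0.04 with a standard error of 0.0931, which became 0.18 with median centring and -0.10 without SiglecXII 3 and 4.

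Sod2, at the head of the chain, held 93.5 to 128 TPM in Control and 98.9 to 113 TPM in SiglecXII. Its log2(TPM + 1) means were 6.75 ± 0.19 (SD, n = 4) and 6.75 ± 0.09 (SD, n = 4). The difference was 0.00356 with a standard error of 0.109, and 0.22 with median centring and 0.08 without SiglecXII 3 and 4. Of the windows of 31 bases in the Sod2 transcripts, 26.57% also occur in other annotated genes, most of them in AC166110.4, so reads could be split between these genes. The like share was 0.67% for Nnt, 1.5% for Txn2 and 0% for the other 5 members.

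**Figure D2:**
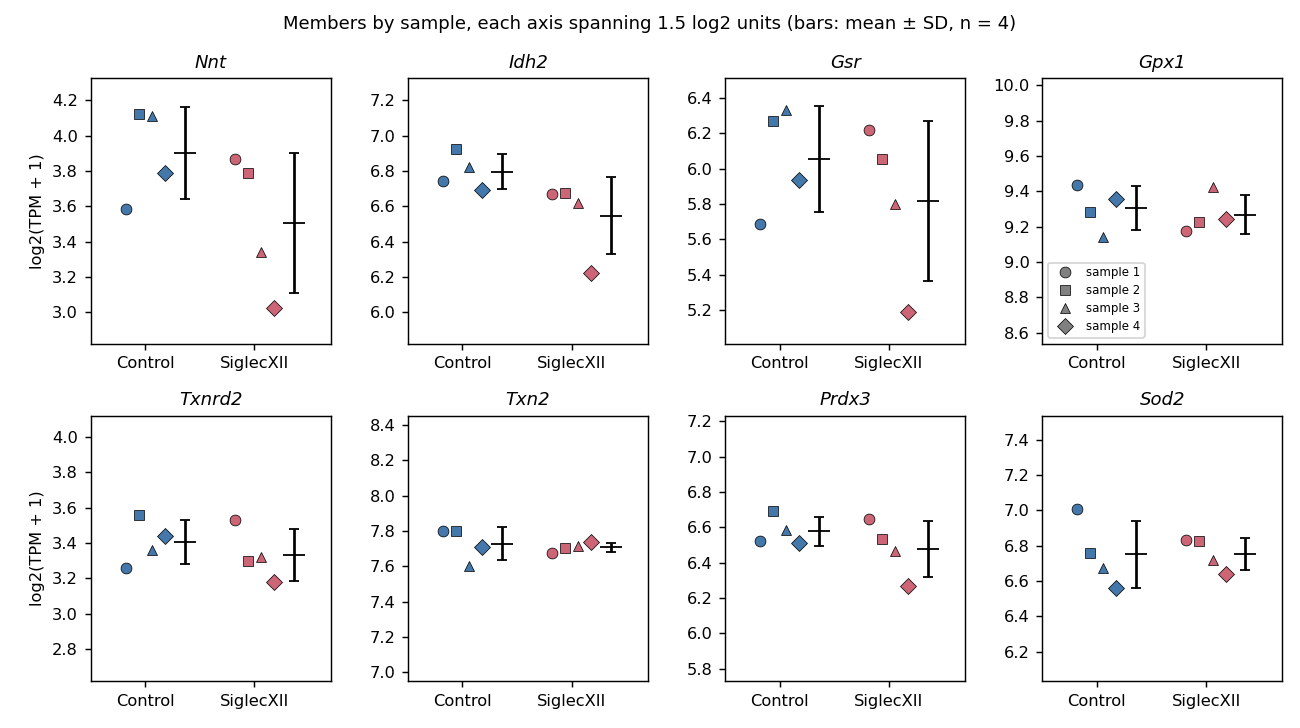
log2(TPM + 1) of the 8 members (y axis, each spanning 1.5 log2 units) in 4 Control (blue) and 4 SiglecXII (red) samples, with the sum of both identifiers for Nnt and Txnrd2 and bars for the mean ± SD (n = 4). Idh2 alone among these 8 panels shows groups that do not overlap, and SiglecXII 4 is the lowest sample for Nnt, Idh2, Gsr, Prdx3 and Txnrd2.

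Counted over the 10 member identifiers, 9 had a difference below 0, beside 78.1% of all tested rows, and their median was -0.07, beside -0.15 over all tested rows. All SiglecXII samples lay below all Control samples for 2 identifiers (Nnt ENSMUSG00000116207 and Idh2), beside 4.06% of all tested rows. No member had all SiglecXII samples above all Control samples, beside 1.05%, which makes 5.11% of all rows with separate groups. None of the 10 passed limma's Benjamini-Hochberg adjusted threshold of 0.05, which 0.038% of all rows did (5 rows, all higher in SiglecXII). At an unadjusted p of 0.05, 1 passed (Nnt ENSMUSG00000116207, lower), beside 7.67% of all rows in that direction, 1.19% in the other and 8.87% in both. These counts rest on the comparison that chose the members and are given as a description only.

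**Figure D3:**
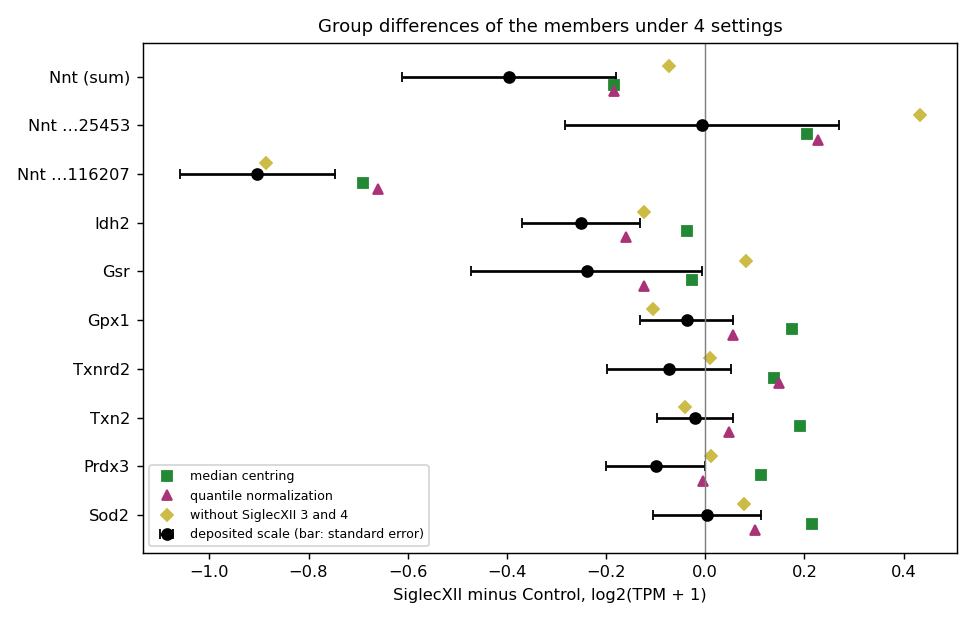
SiglecXII minus Control in log2(TPM + 1) (x axis) for the members (rows), on the deposited scale (black, bars for the standard error), with median centring (green), with quantile normalization (purple) and without SiglecXII 3 and 4 (yellow). Nnt ENSMUSG00000116207, the Nnt sum and Idh2 stay below 0 under these settings, Sod2 stays above 0, and the other members have points on both sides of 0.

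In level, which TPM allows to be compared between genes because it is corrected for length, Nnt and Txnrd2 were far below the other members. Gpx1 was the highest with a mean of 625 TPM over the 8 samples, followed by Txn2 with 210 TPM. Sod2 (107 TPM), Idh2 (102 TPM) and Prdx3 (91.6 TPM) formed a middle range, then came Gsr with 61.96 TPM. Nnt followed with 12.4 TPM and Txnrd2 with 9.37 TPM. Gpx1 exceeded Txn2, Txn2 exceeded Sod2, Prdx3 exceeded Gsr and Gsr exceeded Nnt in 8 of 8 samples. Sod2 exceeded Idh2 in 5 of 8 samples, and their means differed by less than the SD of either gene. Idh2 exceeded Prdx3, and Nnt exceeded Txnrd2, in 7 of 8 samples.

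Across the 8 samples, Nnt, Gsr, Prdx3 and Idh2 varied together, whereas Gpx1, Txn2 and Sod2 did not follow them. Pearson's r with the Nnt sum was 0.95 for Gsr, 0.91 for Prdx3, 0.89 for Idh2 and 0.76 for Txnrd2. It was 0.08 for Sod2, -0.26 for Txn2 and -0.40 for Gpx1. The 4 genes also followed the median deviation of all tested rows in each sample, with r = 0.96 for Nnt, 0.90 for Prdx3, 0.90 for Gsr and 0.85 for Idh2. The identifiers of Nnt differed in this, with r = 0.81 for ENSMUSG00000025453 and 0.56 for ENSMUSG00000116207. All of these values are across 8 samples of 2 groups that share their scaling to the same TPM total, and they are descriptions. Over the 6 samples other than SiglecXII 3 and 4, r with Nnt was 0.93 for Gsr, 0.72 for Prdx3, 0.70 for Idh2 and 0.60 for Txnrd2. It was -0.36 for Txn2, -0.52 for Sod2 and -0.67 for Gpx1. There, r with the median deviation of all tested rows was 0.78 for Nnt, 0.86 for Txnrd2, 0.77 for Gsr, 0.65 for Prdx3 and 0.36 for Idh2. For Txn2, Gpx1 and Sod2 it was -0.20, -0.49 and -0.69.

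**Figure D4:**
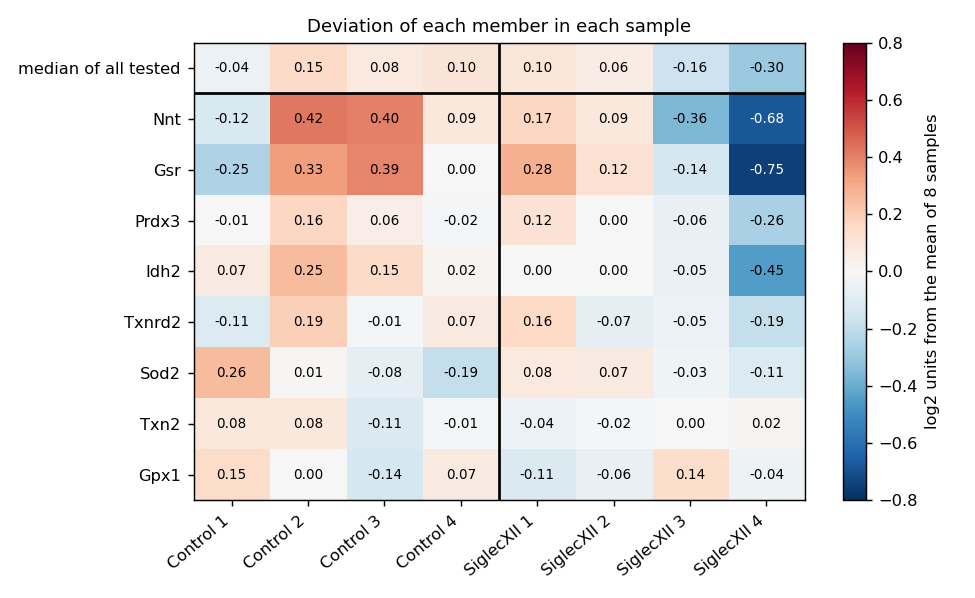
Deviation of each member from its own mean over 8 samples in log2 units (colour and printed value; rows, members; columns, samples), under a top row with the median of such deviations over all tested rows. Nnt reaches 0.42 in Control 2 and -0.68 in SiglecXII 4, in step with the top row and with Gsr, while Txn2 stays within 0.11 of its mean.

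The 5 tested rows whose levels were most like the Nnt sum over the 8 samples were Pml (r = 0.995), Snrnp200 (r = 0.994), Mipep (r = 0.994), Tln1 (r = 0.993) and Gm17201 (r = 0.992). After the group means were removed, they were Ugp2 (r = 0.998), Bak1 (r = 0.996), Mvp (r = 0.995), Anxa4 (r = 0.994) and Anxa11 (r = 0.994). None of the other 7 members was among them. These are the highest values among 13164 tested rows over only 8 samples. Nnt itself followed the median deviation of all tested rows at r = 0.96, so these rows are not shown to be specific partners of Nnt.

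The other genes of NADPH and peroxide metabolism were taken from 6 lists with 58 genes beside the members, of which 54 (55 rows) were tested. None passed limma's adjusted threshold of 0.05 (smallest adjusted p = 0.515). At an unadjusted p of 0.05, Mthfd2l was higher and G6pdx and Oplah were lower, beside 8.87% of all tested rows. This count of 3 was 8 with median centring, 5 with quantile normalization and 1 without SiglecXII 3 and 4, and it ranged from 0 (without SiglecXII 3) to 7 (without SiglecXII 1) with 1 sample left out. Of the 55 rows, 42 had a difference below 0, beside 78.1% of all tested rows (19 with median centring, beside 38.5%). The median was -0.15, the same as over all tested rows. Without SiglecXII 3 and 4, 24 of the 55 were below 0, beside 49.1% of all tested rows, and the median was 0.03. Mthfd2l and Oplah were named after their values were seen.

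Among the other mitochondrial NADPH sources (7 of 8 genes tested), 6 of 8 rows had a difference below 0, beside 78.1% of all tested rows, and the median was -0.06. With median centring 3 of the 8 were below 0, beside 38.5%. Me2, the mitochondrial malic enzyme, differed by -0.25 with a standard error of 0.196, and Me3 by 0.09 with a standard error of 0.165. Glud1, the glutamate dehydrogenase, differed by -0.00416, and Mthfd2, of mitochondrial one-carbon metabolism, by -0.23. Nadk2, the mitochondrial NAD kinase, also had 2 identifiers, with differences of -0.08 for ENSMUSG00000022253 and -0.37 for ENSMUSG00000111527. The second stood at 1.87 and 1.11 log2(TPM + 1) in SiglecXII 3 and 4 against 2.16 to 2.47 in the other 6 samples. Aldh1l2 stayed below the filter, at 0.21 to 0.61 in Control and 0.16 to 0.42 in SiglecXII. Mthfd2l, which belongs to the same pathway as Mthfd2, stood at 3.53 to 3.88 in Control and 3.88 to 4.24 in SiglecXII. Without SiglecXII 3 and 4 none of the 8 rows had a difference below 0, beside 49.1% of all tested rows, and their median was 0.12. Nadk2 gives 2 of these rows. In that setting Mthfd2 differed by 0.02 with a standard error of 0.183, and Mthfd2l by 0.30 with a standard error of 0.156.

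Among the other 9 genes of mitochondrial peroxide and superoxide removal, 4 had a difference below 0, beside 78.1% of all tested rows. With median centring it was 0, beside 38.5%, and none passed either threshold. Gpx4, the peroxidase of lipid hydroperoxides, differed by 0.18 with a standard error of 0.122. Prdx5 differed by -0.07, Glrx2 by 0.04, Srxn1, the sulfiredoxin that restores overoxidised peroxiredoxins, by 0.06 and Slc25a39, the mitochondrial glutathione carrier, by -0.16.

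The cytosolic and endoplasmic reticulum NADPH sources lay on the lower side in all 9 genes tested, beside 78.1% of all tested rows, with a median of -0.28. With median centring 6 of the 9 were below 0, beside 38.5% of all tested rows. Without SiglecXII 3 and 4, 6 of the 9 were below 0, beside 49.1%, and the median was -0.04. G6pdx, the entry enzyme of the pentose phosphate pathway, stood at 6.16, 5.49, 5.52 and 5.89 log2(TPM + 1) in Control and 5.52, 5.56, 4.92 and 4.37 in SiglecXII. The difference was -0.67 with a standard error of 0.275 (limma adjusted p = 0.515), and the groups overlapped. Without SiglecXII 3 and 4 it was -0.22. Me1, the cytosolic malic enzyme, differed by -1.01 with a standard error of 0.503, with Control 1 and 4 at 4.22 and 4.52 and the other 6 samples at 1.997 to 3.16, and by -0.58 without SiglecXII 3 and 4. Idh1 differed by -0.32 and Pgd by -0.21, and without these 2 samples by -0.04 and 0.11.

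The list of cytosolic, secreted and reticulum antioxidant enzymes had 15 tested rows, among them Txnip, which is no such enzyme but an inhibitor of thioredoxin. Of the 15, 12 had a difference below 0, beside 78.1% of all tested rows, and none passed either threshold. With median centring 5 were below 0, beside 38.5%, and without SiglecXII 3 and 4 it was 10, beside 49.1%. Prdx1, the cytosolic peroxiredoxin, was the 1 gene of this list whose groups did not overlap, at 9.16 to 9.34 log2(TPM + 1) in Control and 8.93 to 9.14 in SiglecXII, beside 4.06% of all tested rows in that direction. Its difference was -0.16 with a standard error of 0.0809, and -0.12 without SiglecXII 3 and 4. Cat differed by -0.33, Txnrd1 by -0.32, Gpx3 by -0.22, Prdx6 by -0.13, Gpx2, the epithelial glutathione peroxidase of the gut, by -0.10, Txn1 by -0.08, Sod1 by 0.03 and Txnip by 0.20.

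For glutathione synthesis, Gclc differed by -0.09, Gclm by -0.14 and Gss by 0.04, and Slc7a11 stayed below the filter at 0.32 to 0.80 log2(TPM + 1). Oplah, which recycles oxoproline from glutathione turnover, differed by -0.35 with a standard error of 0.143, and by -0.13 without SiglecXII 3 and 4. Of the 13 tested regulators and targets of Nrf2, the transcription factor of the antioxidant response, 11 had a difference below 0, beside 78.1% of all tested rows. With median centring 5 were below 0, beside 38.5%, and without SiglecXII 3 and 4 it was 4, beside 49.1%. G6pdx passed the unadjusted threshold. Nfe2l2, which encodes Nrf2, differed by -0.15, its inhibitor Keap1 by -0.22, Nqo1 by 0.07 and Hmox1 by -0.58. Hmox1 was at 3.83 and 3.64 in Control 1 and 4 and at 2.04 to 2.60 in the other 6 samples, as Me1 was. A promoter of 300 bases was at hand from RefSeq (GRCm38.p6) for 6 of the 8 members. Nnt and Gsr had none and were not scanned. None of these 6 held the antioxidant response core TGACNNNGC on either strand, which 12.4% of all 32851 promoters of that length held. At that share, its absence from 6 promoters says nothing about the members.

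The genes of mitochondrial content gave a median of -0.14, and 11 of 16 had a difference below 0, beside 78.1% of all tested rows. With median centring 2 were below 0, beside 38.5%, and without SiglecXII 3 and 4 it was 5, beside 49.1%. Cs differed by -0.17, Vdac1 by -0.09, Tomm20 by 0.13, Tfam by -0.14 and Ppargc1a by 0.21. The chaperone Hspd1, named after its values were seen, passed the unadjusted threshold at -0.52 with a standard error of 0.223 (limma adjusted p = 0.515), with its lowest values, 6.11 and 5.62, in SiglecXII 3 and 4, and its difference was -0.12 without them. The 13 mRNAs encoded by mitochondrial DNA, a group added after its values were seen, went the other way. They took 6.35%, 5.26%, 6.95% and 6.90% of all TPM in Control 1 to 4 and 7.95%, 8.24%, 9.35% and 12.03% in SiglecXII 1 to 4, the most in the samples with the least Nnt. Their part in the lower TPM of the members was not tested.

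**Figure D5:**
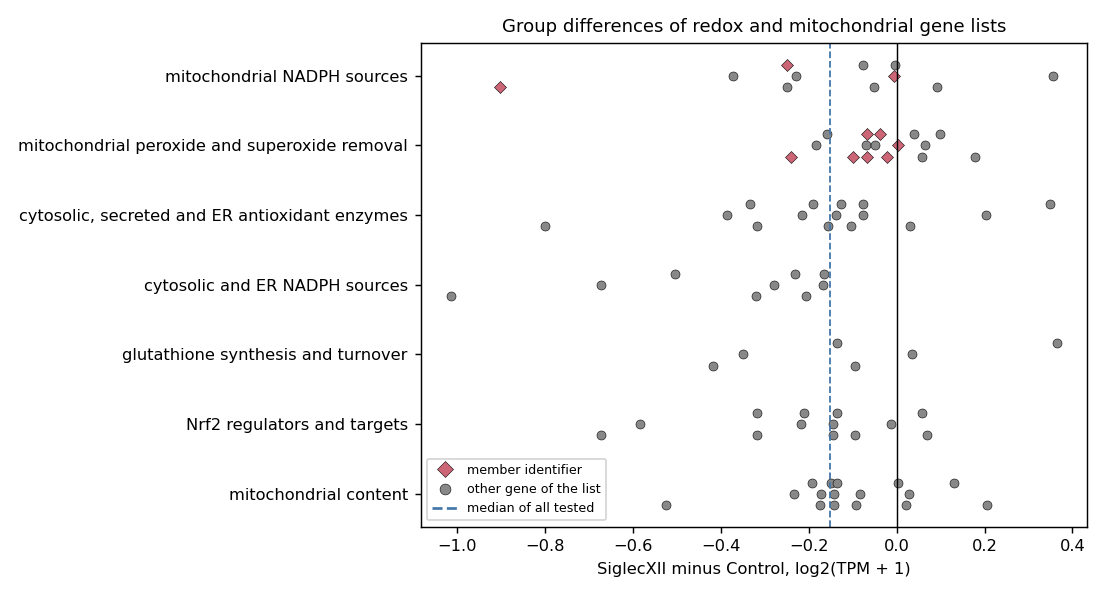
SiglecXII minus Control in log2(TPM + 1) (x axis) for the tested rows of 7 lists of redox and mitochondrial genes (y axis), with member identifiers as red diamonds and other genes as grey circles. A gene on 2 lists is drawn in both, and the dashed line marks the median of all tested rows (-0.15). The diamond at -0.90 is Nnt ENSMUSG00000116207.

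Genes around Nnt and genes known to differ between C57BL/6 substrains were examined beside it. Within 5 Mb of Nnt on chromosome 13, 17 other rows were tested, 2 of which passed an unadjusted p of 0.05 (11.8%, beside 8.87% of all tested rows) and none the adjusted one. These were Emb at -1.06 with a standard error of 0.348 and Zfp131 at -0.38 with a standard error of 0.153, both lower and both named after their values were seen. Without SiglecXII 3 and 4 they differed by -0.85 and -0.17. Paip1, the closest of the tested rows, differed by -0.15. Of 7 other substrain genes, 3 were tested. Ide, which encodes insulin-degrading enzyme, had 2 identifiers with the same values and differed by -1.01 with a standard error of 0.3997 (limma adjusted p = 0.515). It stood at 4.55, 3.27, 2.97 and 4.46 log2(TPM + 1) in Control and at 3.11, 3.33, 2.43 and 2.33 in SiglecXII, so that Control 1 and 4 stood above the other 6 samples, and its difference was -0.59 without SiglecXII 3 and 4. Wdfy1 differed by -0.06 and Entpd4 by 0.09, and Cyfip2 stayed below the filter at 0.15 to 0.88.

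Markers of other cell types of the colon wall were compared as sums, and no gene of these lists passed limma's adjusted threshold. The unadjusted one was passed by 3 of 6 tested smooth muscle rows (Cnn1, Des and Myh11). It was also passed by 1 of 4 tested stromal and neural rows (Pecam1 of endothelium). All were lower, beside 7.67% of all tested rows in that direction. None of the tested immune (2), adipocyte (3) and epithelial (9) rows passed it. The 6 smooth muscle markers (Acta2, Myh11, Tagln, Des, Actg2 and Cnn1) summed to 623 to 1003 TPM in Control and 303 to 651 TPM in SiglecXII, and 6 of 6 had a lower mean in SiglecXII, within overlapping sums. The 6 immune markers (Ptprc, Cd3e, Cd79a, Cd68, Csf1r and Jchain) summed to 4.16 to 20.4 TPM in Control and 2.71 to 4.11 TPM in SiglecXII. These sums did not overlap, but Control 2 (4.16 TPM) and SiglecXII 4 (4.11 TPM) lay close together, and the 20.4 TPM was Control 1. Of the immune markers, 4 had a mean below 1 TPM and only 1 was above 1 TPM in every sample. The 6 stromal and neural markers summed to 10.2 to 25.0 TPM in Control and 12.7 to 16.7 TPM in SiglecXII. The 5 adipocyte markers ranged from 6.20 to 50.7 TPM and from 7.64 to 29.9 TPM, with 2 of 5 lower, beside 78.1% of all tested rows. The part of these cells in the Nnt and Idh2 values was not tested, and in such bulk samples fewer cells of a type and less RNA per cell cannot be told apart.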

How the data were processed

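RNA-seq of 4 Control and 4 SiglecXII colon samples was used. The authors deposited 1 table of log2 values, log2(TPM + 1) per Ensembl gene, which sum to 1000000 TPM in each sample once the log is undone. The submitters' processing notes name kallisto 0.45.0 and GRCm38, whereas the methods name a human reference. The labels name a total RNA kit and the methods an mRNA kit, both with paired reads of 100 bases. The methods also speak of 3 technical libraries per sample, and how these were combined is not given in the sources used here. TPM holds no depth, so the number of samples limits the precision and no counting interval was computed. No 2 samples were identical (correlation over rows 0.978 to 0.993).

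Groups came from the labels. The members, gene lists and tests were chosen with earlier results of these data known. Members were described by values, SD and limma's standard error, and other genes were tested two-sided with limma's lmFit and trended eBayes (limma 3.58.1, R 4.3.3) on rows that reached a TPM of 1 in 4 or more samples, with Benjamini-Hochberg adjustment over all 13164 rows. A difference on the log2(TPM + 1) scale understates the change of low genes. Rows of 1 symbol were summed as TPM for Nnt and Txnrd2, and their standard error came from a fit with the sum in place of the rows. The fit was tested on simulated data of 13164 rows for this comparison, where 166 of 200 changed genes were recovered (83%) with 6 false calls. The changes added there were larger than every member difference, and the simulated noise was independent between samples. The 83% is therefore no measure of power for differences of the size seen in the members. Transcripts and positions were those of GENCODE M21 on GRCm38, which holds 98.3% of the row identifiers, and promoters (250 bases before to 50 after a start) were those of RefSeq. Python 3.11.15 and matplotlib 3.10.9 were used.

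Named genes were the members, genes fixed by role from each list, and the 5 rows most correlated with Nnt by each measure. Others are marked in the text. The alternatives were quantile normalization, median centring, a pseudocount of 0.1, a TPM filter of 5 or none, limma array weights, the sample number as a block, the higher Nnt identifier alone, each sample left out, and, chosen after seeing the data, leaving out SiglecXII 3 and 4.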

Additional observations from a re-analysis of the deposited data

Results flagged for a closer look

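A single sample stood far off the remaining ones of its group in 6 of 104 groups of 4 examined, where chance gives about 5.2. The figure given for each is the gap of that sample to its nearest neighbour divided by the range of the group, read against Dixon's critical value. Among the members it was Idh2, for which SiglecXII 4 stood at 6.22 log2(TPM + 1) and the other SiglecXII samples at 6.62 to 6.68 (ratio 0.876). Keap1 in Control 1 stood at 4.56 against 4.88 to 4.92 (ratio 0.882). Nadk2 ENSMUSG00000022253 in Control 1 stood at 3.003 against 3.51 to 3.56 (ratio 0.918). Ppargc1a in SiglecXII 2 stood at 3.96 against 3.70 to 3.74 (ratio 0.840). Slc25a39 in Control 2 stood at 7.69 against 7.48 to 7.51 (ratio 0.838). Wdfy1 in Control 1 stood at 3.79 against 4.02 to 4.06 (ratio 0.865).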

How the results depend on the processing

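The Nnt difference (-0.40) kept its sign in 14 of 14 alternatives and lay between -0.52 and -0.24 with 1 sample left out. Among these alternatives, the sample number as a block could not change any difference. The Nnt difference was -0.00656 with the higher identifier alone. ENSMUSG00000116207 stayed between -1.08 and -0.66 and ENSMUSG00000025453 between -0.18 and 0.43. The median difference of the other members (-0.07) was 0.0477 with quantile normalization and 0.14 with median centring, and -0.14 to -0.03 with 1 sample left out. Median centring by construction raised every difference by 0.21.

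The count of member rows past the adjusted threshold was 0, and 1 with array weights, where 18 of all 13164 tested rows passed. As this comparison chose the members, these member counts are a description only. The count over all rows (5) was 3 with a TPM filter of 5, 3 without a filter, 18 with array weights, 2 without SiglecXII 3 and 4, and 2 to 6 with 1 sample left out, with 3 without SiglecXII 1 or 4 and 2 without SiglecXII 2. The count of other redox genes was 0 in each of these settings, and their count at an unadjusted p of 0.05 (3) was 0 to 8. The count of rows near Nnt at an unadjusted p of 0.05 (2) was 1 with quantile normalization, with median centring, with a TPM filter of 5, and without SiglecXII 3 and 4, and 1 to 4 with 1 sample left out, with 4 without SiglecXII 1 and 1 without Control 1, 2 or 4 or SiglecXII 3 or 4. The cause of these changes was not tested.

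The deviations of same-numbered samples from their group means correlated at -0.165, -0.204, 0.103 and -0.002. As each group of 4 was centred on its own mean, these values cannot settle whether the numbers pair the samples. With the number as a block, the count near Nnt was 1. The Nnt difference stayed at -0.40 by construction, since every number occurs in both groups and the block cannot change it. Depth is unknown, and 4 samples per group limit each value.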
